A study of Mus musculus with 3 samples.

Results

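The genes described here are those of hemoglobin and of the red cell: the embryonic and adult globins, the enzymes and mitochondrial carriers of heme synthesis, the transcription factors of the erythroid lineage, the receptors for erythropoietin and transferrin, and proteins of the red cell membrane. They were chosen by a list of 34 symbols that was drawn up with fold changes of these 2 libraries already known, so that the fold changes below are descriptions and carry no test. Of the 34 symbols, 32 are among the 24062 gene symbols of the count files, and 28 of these had counts. *Epb42* and *Ahsp* are not among the symbols. The gene of *Epb42*, a protein that fastens the membrane skeleton, is listed under its older symbol *Epb4.2*, with 2 counts in *tuft* and 49 in WT, and was left outside the counts of genes given here.

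Rostrums, which hold the front of the embryonic head, were taken from E9 embryos of 18 to 22 somites for RNA-Seq. The *tuft* embryos were homozygous for a nonsense mutation in *Tet1*, which encodes an enzyme that oxidizes methylated cytosine in DNA. The wild-type (WT) embryos were of the background strain 3H1 Balb, which both groups share. Per the study, the *tuft* heads used had curled neural folds, so genotype and this defect cannot be told apart. RNA of 3 embryos was pooled for each library, and 1 library per genotype was analyzed, so the values have no replicate error and the spread between embryos is unknown. The sample records name 2 *tuft* samples and 1 wild-type sample, and to which of the *tuft* samples the single *tuft* column belongs is not given in the sources used here. The deposited values are raw counts per gene.

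The *tuft* library held 6433067 counts on genes and the wild-type library 14251942, 2.22 times as many. Levels are therefore given as counts per 1000000 counts on genes (CPM), and fold changes are *tuft* over wild type normalized by the trimmed mean of M-values (TMM). Each fold change carries an exact 95% Clopper-Pearson interval of the counts, which covers counting error only. A gene with at least 10 counts in both libraries together was compared, and it was called higher or lower where this interval lay wholly above 2-fold or wholly below 0.5-fold. For fold changes, a count of 0 was set to 3 counts, which is 0.466 CPM in *tuft* and 0.21 CPM in WT. Fold changes set this way are given without an interval. Where a pair of counts is given without a name, *tuft* comes before WT. By the rule for calls, 17.4% of the 13979 genes compared were higher in *tuft* and 29.8% were lower. The mutated gene *Tet1* had 32 counts in *tuft* and 435 in WT, or 0.214-fold (0.145 to 0.307). None of 10 markers of head neuroepithelium was at 0 in either library, and of 10 markers of head mesenchyme only *Prrx2* was at 0, in *tuft*.

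Hemoglobin is a tetramer of alpha-like and beta-like globin chains, each of which holds a heme group. The first red cells of the mouse, the primitive erythroid cells, arise in the yolk sac, enter the circulation while the neural tube is closing and reach the head with the blood. They make the embryonic chains zeta (*Hba-x*), epsilon-y (*Hbb-y*) and beta-h1 (*Hbb-bh1*) beside the adult alpha chains, and as they mature *Hbb-bh1* is known to give way to *Hbb-y*. In a sample of whole tissue, fewer cells of a type and less RNA per cell cannot be told apart.

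The globins are close relatives, and how far 2 of them can be separated by a read depends on how much sequence they share. The first 60 coding bases are shown for the embryonic chains, which were counted, and for the adult alpha chains, which were not, from transcripts of the GENCODE annotation on NCBIM37. These are sequences of the C57BL/6J reference and not of 3H1 Balb. Capitals mark the bases that differ from the gene named in parentheses.
Hba-x (against Hba-a1): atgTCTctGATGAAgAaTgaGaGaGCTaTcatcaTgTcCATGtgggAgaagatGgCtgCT
Hba-a1 (against Hba-a2): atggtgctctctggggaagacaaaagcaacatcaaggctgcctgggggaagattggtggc
Hba-a2 (against Hba-a1): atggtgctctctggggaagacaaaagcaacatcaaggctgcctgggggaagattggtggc
Hbb-y (against Hbb-bh1): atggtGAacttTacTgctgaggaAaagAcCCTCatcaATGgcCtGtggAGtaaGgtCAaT
Hbb-bh1 (against Hbb-y): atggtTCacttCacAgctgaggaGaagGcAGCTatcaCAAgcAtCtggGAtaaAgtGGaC

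Over the whole coding sequence, *Hbb-y* and *Hbb-bh1* differed at 105 of 444 bases, and their longest identical run was 26 bases. *Hba-x* was 62.0% identical to *Hba-a1*. No window of 50 bases in the transcripts of the 3 embryonic globins occurred in the transcript of another gene. The 2 adult alpha genes, in contrast, differed at 1 of 429 coding bases, and 67.5% of the 50-base windows of *Hba-a1* and 86.9% of those of *Hba-a2* were shared between them. For the adult beta genes *Hbb-b1* and *Hbb-b2* the shares were 52.3% and 58.3%.

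Promoter sequence is shown for the 2 globin genes that stood out in level and for *Alas2*, the erythroid heme gene that was lower (RefSeq, GRCm38.p6). Each run is the 120 bases before the annotated start, on the strand of the gene. Capitals mark GATA motifs (the letters AGATAA or AGATAG, and likewise TGATAA or TGATAG) and CACCC motifs (CCACCC), both searched on both strands, and TATA motifs (TATAAA or CATAAA), searched on the strand of the gene.
Hba-x, chr11:32276480-32276599, plus strand: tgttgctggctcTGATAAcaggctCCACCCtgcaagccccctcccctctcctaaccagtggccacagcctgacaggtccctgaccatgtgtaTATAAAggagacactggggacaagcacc
Hbb-y, chr7:103853208-103853327, minus strand: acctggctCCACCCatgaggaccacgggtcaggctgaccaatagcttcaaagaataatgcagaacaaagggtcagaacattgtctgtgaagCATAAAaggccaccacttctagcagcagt
Alas2, chrX:150547297-150547416, plus strand: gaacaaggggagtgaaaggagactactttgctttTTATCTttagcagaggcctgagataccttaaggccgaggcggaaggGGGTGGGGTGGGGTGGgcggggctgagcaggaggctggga

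The window of *Hba-x* held a GATA motif that began 108 bases before the start, a CACCC motif at 96 and a TATA motif at 28. *Hbb-y* held a CACCC motif at 112 and the variant TATA motif at 29, and no GATA motif of these letters in this window. In *Alas2* a GATA motif and 3 overlapping CACCC motifs lay on the opposite strand. The 23 listed genes with a promoter entry had 30 windows, since a gene can have several starts. The GATA letters occurred in 9 of the 30 and in 12.8% of all 32851 windows of the same length, the CACCC letters in 12 of 30 and 16.45%, and the TATA letters in 3 of 30 and 6.89%. These are matches of letters in the reference sequence and say nothing of binding in either genotype.

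RNA of 2 of the 3 embryonic globins, *Hba-x* and *Hbb-y*, was far more abundant in the *tuft* library. *Hba-x* (chromosome 11, 32276600 to 32278116) had 118762 *tuft* counts against 20173 in WT, or 18461 and 1415 CPM. It was the gene with rank 2 by counts in *tuft* and rank 35 in WT. Its fold change was 17.1 (16.9 to 17.4). *Hbb-y* (chromosome 7, 103851754 to 103853207) had 103925 *tuft* counts against 9335 in WT, or 16155 and 655 CPM. It moved from rank 132 in WT to rank 3 in *tuft*, with a fold change of 32.4 (31.7 to 33.1).

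*Hbb-bh1*, the other embryonic beta-like gene (chromosome 7, 103841638 to 103843162), did not share this difference. It had 5707 counts in *tuft* and 15430 in WT, or 887 and 1083 CPM. The fold change was 1.08 (1.04 to 1.11) with TMM and lay below 1 where the library totals alone were used (log2 fold change -0.29). *Hbb-bh1* lies next to *Hbb-y* in the beta-globin cluster. On the scale of CPM per kb of transcript, which allows levels of different genes to be compared, *Hbb-bh1* at 1763 and *Hba-x* at 1767 were alike in WT and *Hbb-y* stood below both at 991. In *tuft*, *Hbb-y* at 24440 and *Hba-x* at 23048 stood far above *Hbb-bh1* at 1445.

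The make-up of the globin counts inside each library does not depend on normalization between libraries. All globin symbols together held 3.55% of the counts on genes in *tuft* (3.54 to 3.56) and 0.315% in WT (0.313 to 0.318), a fold change of 14.8 after TMM. Of the globin counts, *Hba-x* made up 52.0% in *tuft* and 44.9% in WT. *Hbb-y* made up 45.5% and 20.8%, and *Hbb-bh1* made up 2.50% and 34.3%. The beta-like globins thus exchanged places between the libraries. *Hbb-y* over *Hbb-bh1* was 18.2 (17.7 to 18.7) in *tuft* and 0.605 (0.590 to 0.621) in WT, 30.1 times apart. The balance of *Hba-x* to the 2 embryonic beta-like genes together was much closer, at 1.08 (1.07 to 1.09) in *tuft* and 0.815 (0.800 to 0.830) in WT. These intervals, too, cover counting error only.

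**Figure D1:**
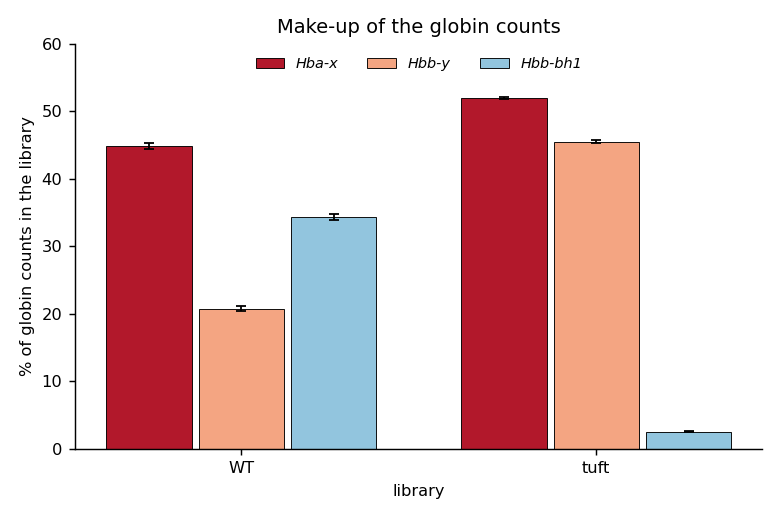
Share of each embryonic globin among all globin counts (percent, vertical axis from 0) in the WT and the *tuft* library, 1 library each. Bars are shares and error bars exact 95% binomial intervals for counting error. *Hbb-bh1* makes up 34.3% of the globin counts in WT and 2.50% in *tuft*, and *Hbb-y* 20.8% and 45.5%.

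The adult globins *Hba-a1*, *Hba-a2*, *Hbb-b1* and *Hbb-b2* were listed at 0 in both libraries. Primitive erythroid cells are known to transcribe adult alpha globin, and these genes share most of their 50-base windows with their near-identical copy. Alignments that were not unique made up 59.2% of the entries in *tuft* and 51.4% in WT and entered no gene count. The zeros are therefore uncertain as a measure of adult globin RNA, and whether such reads are among those alignments was not tested. Of the globin symbols beyond the list, *Hbb-bs*, *Hbb-bt* and *Hbq1a* were also at 0 in both, and *Hbb-bh2* and *Hbq1b* had 8 and 14 counts in WT and 0 in *tuft*. No chromosome position was found for *Hbb-b1* and *Hbb-b2* in the RefSeq reference used here, while *Hbb-bs* and *Hbb-bt* lie on chromosome 7. The bearing of this on the zeros was not tested.

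The 25 other genes with counts together held 0.136% of the counts on genes in *tuft* and 0.110% in WT, a fold change of 1.64 beside 14.8 for the globins.

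In all, 8 of the 28 genes were called higher in *tuft* and 7 lower, and 13 were neither, beside 17.4% higher and 29.8% lower among all genes compared. The median log2 fold change was 0.51, and 0.49 without the embryonic globins, beside -0.46 for all genes. The range was wide, from -3.84 for *Gata1*, set to 3 counts in *tuft*, to 5.02 for *Hbb-y*.

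**Figure D2:**
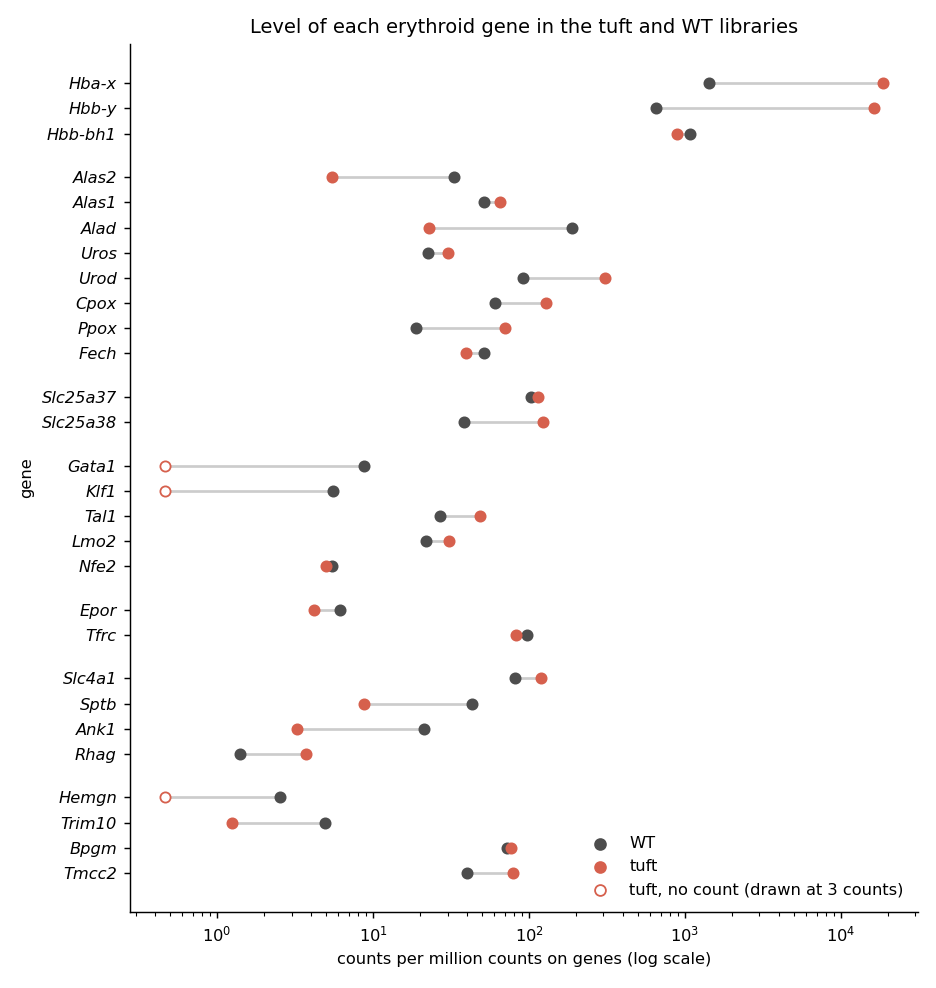
Level of each listed gene with counts, in CPM (log axis), in the WT (grey) and the *tuft* (red) library, 1 library each, with the genes grouped by role from globins to other erythroid genes. Open points are genes with no count in *tuft*, drawn at the level of 3 counts (0.466). *Hba-x* and *Hbb-y* are near each other at the far right in *tuft*, and *Gata1*, *Klf1* and *Hemgn* are the open points.

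Heme is made in a chain of steps that starts and ends in the mitochondrion. Of the 8 heme genes of the list, 3 were called higher, 2 lower and 3 neither, beside 17.4% higher and 29.8% lower among all genes compared. *Alas2*, the erythroid form of the first and rate-limiting enzyme (chromosome X, 150547417 to 150570622), had 35 *tuft* counts against 473 in WT. It was lower, at 0.215-fold (0.148 to 0.304). *Alas1*, the form of the same enzyme found in all tissues (chromosome 9, 106233455 to 106247954), had 417 *tuft* counts against 728 in WT, a fold change of 1.67 (1.48 to 1.88) that was not called. The 2 forms were at like levels per kb in WT, *Alas1* at 16.5 and *Alas2* at 16.3 CPM per kb, and at 21.0 and 2.67 in *tuft*. *Alas2* overlaps *Apex2*, which had 667 and 598 counts. Whether the counting used strand is not given in the sources used here, so reads of overlapping genes may not be told apart.

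*Alad*, which joins the product of the first step into a pyrrole ring (chromosome 4, 62505984 to 62520063), had the highest wild-type level per kb of the listed heme genes. It had 147 counts in *tuft* and 2673 in WT, 0.160-fold (0.135 to 0.189). *Uros*, which closes the porphyrin ring, had 194 and 319 counts, 1.77-fold (1.47 to 2.12), not called. It overlaps *Bccip*, which had 473 and 1896 counts.

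*Urod*, *Cpox* and *Ppox*, which act after *Uros* and before *Fech*, were called higher in *tuft*. *Urod*, which removes carboxyl groups from the porphyrin (chromosome 4, 116989965 to 116994436), had 1959 *tuft* counts against 1298 in WT, 4.39-fold (4.10 to 4.72). *Cpox*, which works between the mitochondrial membranes (chromosome 16, 58670208 to 58680391), had 830 and 856 counts, 2.82-fold (2.56 to 3.11), a call that was lost with the library totals alone. *Ppox*, which oxidizes the porphyrin before iron is added (chromosome 1, 171276991 to 171281193), had 449 and 268 counts, 4.88-fold (4.18 to 5.70). *Fech*, which inserts the iron in the last step, had 252 and 732 counts. Its fold change was 1.00 (0.865 to 1.16) with TMM and lay below 1 with the library totals alone and with the upper quartile.

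The order of the heme genes by level therefore differed between the libraries. Per kb of transcript, wild type ran from *Alad* at 150 CPM per kb over *Urod* at 61.2, *Cpox* at 18.9, *Fech* at 17.7, the *Alas* pair and *Uros* at 12.7 to *Ppox* at 10.3. In *tuft* the order was *Urod* at 205, *Cpox* at 40.5, *Ppox* at 38.3, *Alas1* at 21.0, *Alad* at 18.3, *Uros* at 17.1, *Fech* at 13.5 and *Alas2* at 2.67. *Alad* and *Alas2* left their places at the top and in the middle, and *Ppox*, at the bottom of the order in WT, held the third place in *tuft*. Neighbours in either order that lie as close as *Alas1* and *Alas2* in WT cannot be ranked without replicates.

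The 2 mitochondrial carriers serve heme synthesis from inside the organelle. *Slc25a38*, which brings in the glycine for the first step (chromosome 9, 120110377 to 120126093), had 794 *tuft* counts against 545 in WT, 4.24-fold higher (3.80 to 4.74). *Slc25a37*, mitoferrin, which brings in iron (chromosome 14, 69241848 to 69285544), had 730 and 1469 counts, 1.45-fold (1.32 to 1.58), not called.

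**Figure D3:**
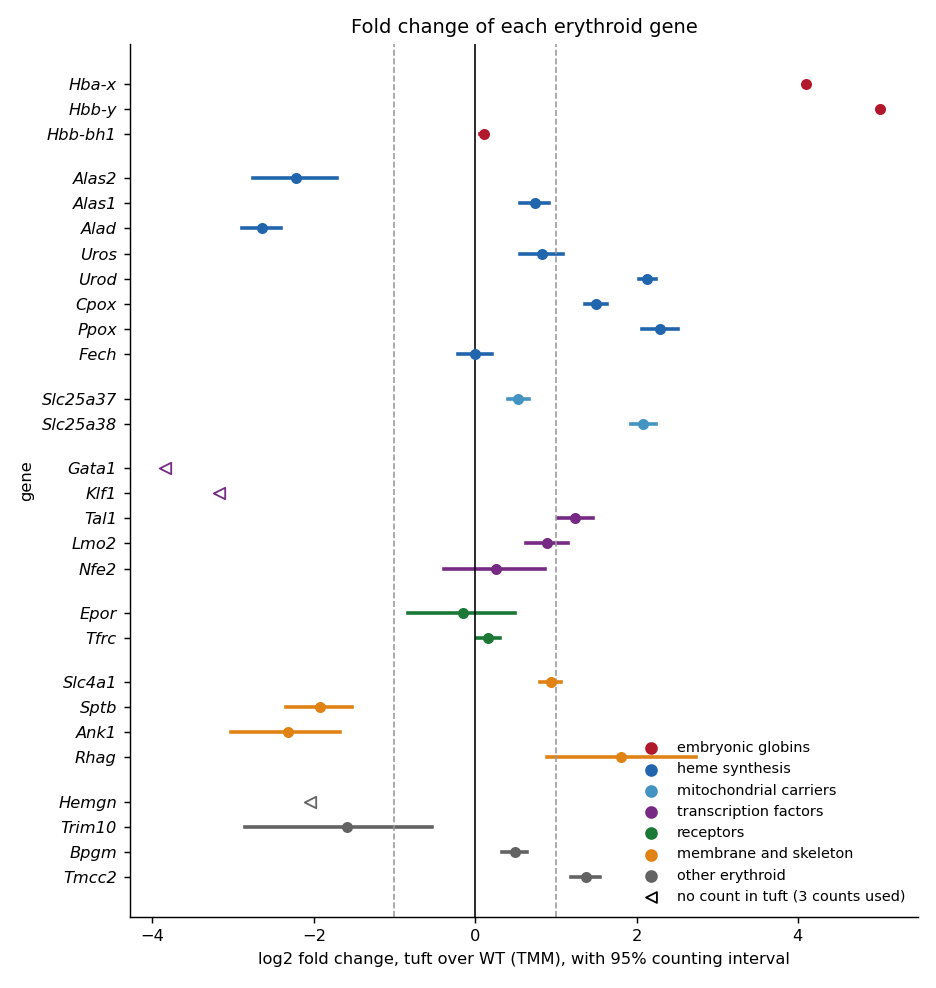
Log2 fold change of each listed gene, *tuft* over WT after TMM, colored by role. Lines are 95% counting intervals, dashed lines mark 2-fold, and open triangles are genes with no count in *tuft*, for which 3 counts were used and no interval is drawn. *Hbb-y* and *Hba-x* lie at 5.02 and 4.10, and the heme genes spread on both sides of 0, from *Alad* at -2.64 to *Ppox* at 2.29.

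Of the 5 erythroid transcription factors, 1 was called higher, 2 lower and 2 neither, beside 17.4% higher and 29.8% lower among all genes compared. *Gata1*, the GATA factor that red cell differentiation needs (chromosome X, 7959260 to 7976663), had no count in *tuft* and 125 in WT. With its *tuft* count set to the fixed value used for such genes, it was 14.3-fold lower. *Klf1*, the Krüppel-like factor that binds CACCC motifs of globin genes (chromosome 8, 84901982 to 84905291), had no count in *tuft* and 79 in WT. Set in the same way it was 9.04-fold lower. Both were weakly expressed in WT, at 8.77 and 5.54 CPM. A count of 0 in *tuft* was common at that level: of the 1320 genes between 5 and 10 CPM in WT, 29.1% had none.

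*Tal1*, a basic helix-loop-helix factor of blood and vessels that acts in a complex with GATA1 (chromosome 4, 115056426 to 115071755), had 312 *tuft* counts against 384 in WT. It was higher, at 2.37-fold (2.03 to 2.75), and lost its call with the library totals alone and with the upper quartile. *Lmo2*, the protein that bridges this complex (chromosome 2, 103957903 to 103981878), had 197 and 309 counts, 1.86-fold (1.54 to 2.23), not called. *Nfe2*, the erythroid and megakaryocyte subunit of a factor that binds the globin control region, had 32 and 78 counts. At 1.19-fold (0.766 to 1.82) it was not called, and its sign turned with the library totals alone.

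The 2 receptors were close to level. *Epor*, the receptor for erythropoietin, which keeps red cell precursors alive (chromosome 9, 21958897 to 21963576), had 27 *tuft* counts against 87 in WT, 0.904-fold (0.564 to 1.41). *Tfrc*, the transferrin receptor, through which dividing cells of many kinds take up iron (chromosome 16, 32608896 to 32632794), had 529 and 1374 counts. Its fold change was 1.12 (1.01 to 1.24), and lay below 1 with the library totals alone.

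Of the 4 membrane and skeleton genes with counts, 2 were lower and 2 were not called, beside 29.8% lower among all genes compared. *Sptb*, the beta chain of spectrin, had 56 counts in *tuft* and 618 in WT, 0.264-fold (0.197 to 0.347). *Ank1*, the ankyrin that ties spectrin to the membrane, had 21 and 304 counts, 0.201-fold (0.123 to 0.313). Both overlap other genes on the genome, *Sptb* with *Plekhg3* (175 and 877 counts) and *Ank1* with *Gm15816* (54 and 4). *Slc4a1*, the anion exchanger to which ankyrin binds (chromosome 11, 102348820 to 102365281), had 765 and 1166 counts and a fold change of 1.91 (1.74 to 2.09), and was not called. *Rhag*, a partner of the Rh proteins, had 24 and 20 counts, and with so few its 3.49-fold change (1.85 to 6.67) was not called.

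*Hemgn*, a nuclear protein of blood precursors, had no count in *tuft* and 36 in WT, 4.12-fold lower with 3 counts in place of 0. Its wild-type level was 2.53 CPM, and of the 1407 genes between 2 and 5 CPM in WT 49.6% had no count in *tuft*. *Trim10*, a RING finger protein of maturing red cells, had 8 and 70 counts, 0.333-fold (0.138 to 0.693), not called. *Bpgm*, which makes the bisphosphoglycerate that lowers the affinity of hemoglobin for oxygen, had 495 and 1025 counts, 1.41-fold (1.26 to 1.57), not called. *Tmcc2* (chromosome 1, 132356315 to 132391923) had 507 and 572 counts, 2.58-fold higher (2.29 to 2.91), a call that was lost with the library totals alone.

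Among all genes compared, the shares called differed with the mean level of the 2 libraries, a mean that holds the *tuft* value itself. Of the 1087 genes with a mean TMM-normalized count of at least 3000 over the libraries, on the scale of the wild-type library, 34.3% were called higher in *tuft* and 10.8% lower, and of the 1693 genes between 30 and 100, 11.9% were higher and 58.7% lower. Of the listed genes, 3 of 4 in the upper band were higher and 0 lower, and 0 of 6 in the lower band were higher and 2 lower. By the wild-type level alone, the share higher was 18.0% from 2 to 5 CPM in WT and 21.0% from 5 to 10. It was 17.7% from 20 to 50 CPM and 15.0% from 50 to 100. The share lower was 56.7%, 45.0%, 28.9% and 24.4% in these bands. Other wild-type levels were not counted in this way, among them those of *Hba-x* (1415 CPM) and *Hbb-y* (655 CPM). The part of sequencing depth in the calls of the weakly expressed genes was not tested.

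**Figure D4:**
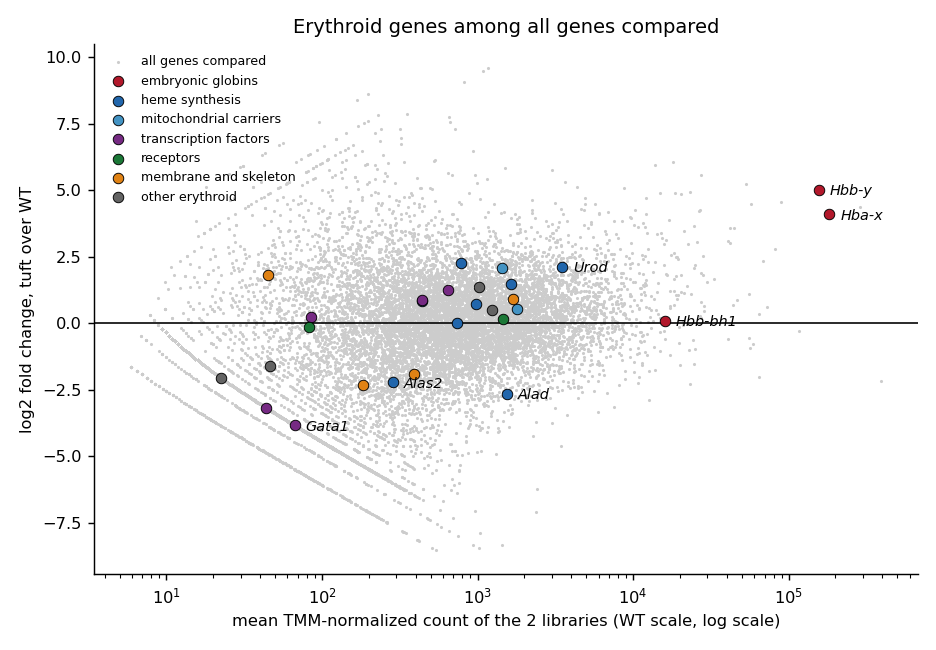
Log2 fold change, *tuft* over WT after TMM, against the mean TMM-normalized count of the 2 libraries (log axis), for all 13979 genes compared (grey) and the listed genes (colored by role). Genes without a count in a library are drawn with 3 counts and form the slanted rows at the lower left. *Hbb-y* and *Hba-x* stand apart at the upper right, at rank 128 and rank 243 of all fold changes, and *Hbb-bh1* lies near 0.

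Other erythroid genes were taken from a further list of 33, of which 29 could be compared. Of these, 4 were higher and 9 lower, beside 17.4% higher and 29.8% lower among all genes compared. The median log2 fold change was -0.35, beside -0.46 for all genes. *Gypc*, a glycophorin of the red cell membrane, had no count in *tuft* and 220 in WT, 25.2-fold lower with 3 counts in place of 0. At the upper end were *Bnip3l*, which clears mitochondria from maturing red cells (1349 and 1245 counts, 3.16-fold), and *Abcb10*, a mitochondrial transporter (898 and 867 counts, 3.02-fold). At the lower end were *Dmtn*, a protein of the membrane skeleton (1 and 242 counts), and *Tal2*, a relative of *Tal1* (1 and 152 counts). This list, like the first, held genes far on both sides. Its summed level was 2339 CPM in *tuft* and 2399 in WT, and after TMM the ratio of the sums was 1.28. The largest parts of both sums were *Slc2a1* (1102 CPM in *tuft* and 981 in WT) and *Epb41* (353 and 340), neither of them called. The sums therefore say little of the weakly expressed genes of the list.

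Of 20 other genes of heme and iron, 2 were higher and 7 lower, beside 17.4% higher and 29.8% lower among all genes compared. The median log2 fold change was -0.47, close to the -0.46 of all genes. *Tspo*, a protein of the outer mitochondrial membrane that binds porphyrins, had 288 and 86 counts, 9.75-fold higher (7.64 to 12.6). *Clpx*, a mitochondrial unfoldase that activates the first enzyme of heme synthesis, had 970 and 423 counts, 6.68-fold higher (5.95 to 7.50). Among the lowest were *Flvcr1*, which exports heme (3 and 233 counts), and *Slc40a1*, the iron exporter ferroportin (0 and 133 counts). Both genes were named because they lay among the 3 lowest fold changes of this list. *Flvcr1*, listed under its older symbol *Mfsd7b*, was at 0.0375-fold (0.00768 to 0.111). *Slc40a1* was 15.2-fold lower with 3 counts in place of 0. Its wild-type level was 9.33 CPM, and of all genes between 5 and 10 CPM in WT 29.1% had no count in *tuft*.

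Markers of other cells of the blood, of vessels and of the yolk sac were counted in the same libraries, and their part in the values above was not tested. Their calls stand beside 17.4% higher and 29.8% lower among all genes compared. For macrophages all 10 markers were at 0 in *tuft*, and their summed level in WT was 7.09 CPM, with 1 at 0. The highest of them in WT was *Cd68* at 4.21 CPM. Of all genes between 2 and 5 CPM in WT, 49.6% had no count in *tuft*. Only 2 of the macrophage markers had enough counts to be compared, of which 0 were called higher and 1 lower. Of 10 megakaryocyte markers 7 were at 0 in *tuft* and 2 in WT, and the sums were 15.5 and 13.3 CPM. Of the 5 that could be compared, 1 was higher and 1 lower. These were *Vwf*, a clotting protein that endothelium also makes, with 97 and 46 counts and most of the *tuft* sum, and *Itga2b*, an integrin of platelets, with 1 and 81 counts. *Vwf* was 6.14-fold higher (4.28 to 8.92). The 10 markers of blood progenitors summed to 248 CPM in *tuft* and 258 in WT, a ratio of 1.26 after TMM, with 4 at 0 in *tuft*. The largest part of the sum was *Cbfb* at 102 CPM in *tuft* and *Cd34* at 81.3 CPM in WT. The megakaryocyte and progenitor markers at 0 in *tuft* were likewise below 5 CPM in WT. Of the 8 progenitor markers compared, 1 was higher, 2 lower and 5 neither. Among them *Myb*, a factor of blood precursors, had 152 and 147 counts, 3.01-fold higher (2.38 to 3.80), and *Cd34* 104 and 1158, 0.262-fold (0.212 to 0.320).

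The 10 endothelial markers summed to 219 CPM in *tuft* and 450 in WT. Of them, 1 was called higher and 3 lower, beside 17.4% and 29.8% of all genes compared. Among them *Pecam1*, a defining marker, had no count in *tuft* and 443 in WT, while *Emcn*, another, had 197 and 136 counts and was 4.22-fold higher (3.37 to 5.29). The yolk sac endoderm, the layer next to which primitive red cells form, had the lowest median log2 fold change of these lists, -3.48. Its 10 markers summed to 292 CPM in *tuft* and 2296 in WT, 8 of 10 were lower and none higher, and *Apoa4*, an apolipoprotein, had 0 and 2856 counts. *Amn*, an endocytic receptor subunit, was the highest of this list at 2.01-fold (1.69 to 2.38) and was not called. Most markers of the yolk sac endoderm thus differed in the opposite direction to *Hba-x* and *Hbb-y*.

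**Figure D5:**
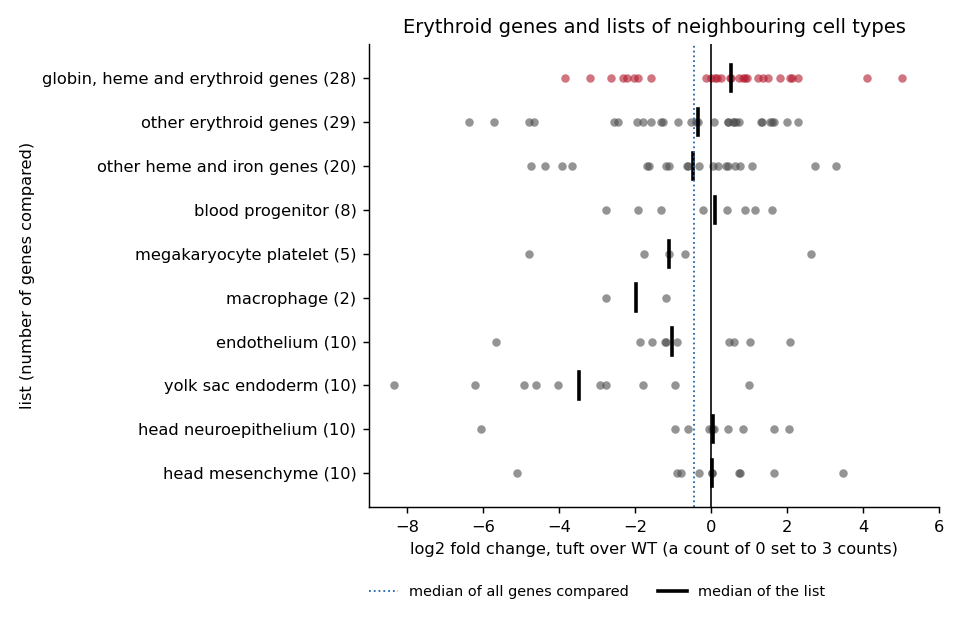
Log2 fold change, *tuft* over WT after TMM, of each gene compared (points) in the list of globin, heme and erythroid genes (red) and in 9 lists of other genes (grey), with the number of genes compared in parentheses. Black bars are the medians of the lists and the dotted line is the median of all genes, -0.46. The globin, heme and erythroid genes have a median of 0.51 and the yolk sac endoderm one of -3.48.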

How the data were processed

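Poly-A RNA was sequenced on an Ion Proton. The authors aligned the reads to mm10 and deposited raw counts per gene symbol from HTSeq, without normalization. Per the submitters' processing notes the tools include TopHat2 2.0.14, Bowtie2 2.2.5 and SAMtools 0.1.18. The overlap mode and the strand setting of the counting are not given in the sources used here. The 5 summary lines that end each column (72.6% of the entries in *tuft*, 62.7% in wild type) were kept out of the totals.

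TMM factors came from edgeR 4.0.16 in R 4.3.3, with a *tuft* to WT factor of 0.761. With 1 library per genotype, edgeR has no residual degrees of freedom and no p-value is given. The study's NOISeq-sim, which draws simulated libraries, was not run. The fold changes, intervals (scipy 1.17.1) and rule for calls were checked on simulated data. Intervals cover counting error only, since reads without molecular identifiers are not independent molecules.

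The members and lists were chosen with earlier results of these data known. Named are all members, *Tet1*, *Rn45s* and, of each other list, the highest and lowest fold change (3 each for the erythroid and the heme and iron list) among genes with 100 counts or more over both libraries. Some of these are not reported here. Other names, those of overlapping genes and *Epb4.2* among them, were added after values were seen. Gene lengths are of the longest GENCODE transcript on NCBIM37, and coordinates are of RefSeq GRCm38.p6. The alternatives tried were DESeq2 1.42.0 size factors, the upper quartile, library totals alone, TMM without the members or without *Rn45s*, other filters on low counts, other fold limits and, chosen after seeing the data, only genes with a count in both libraries.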

Additional observations from a re-analysis of the deposited data

Results flagged for a closer look

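Alignments that were not unique, which enter no gene count, made up 59.2% of the entries in *tuft* and 51.4% in WT. The share is listed here because it is a signal outside the counts on genes that was above its level in the wild-type control. These are shares of entries and not of reads, since 1 read can have several entries. The 4 adult globin genes, which share 52.3% to 86.9% of their 50-base windows with a near-identical copy, were at 0 in both libraries. Whether their reads are among these alignments was not tested.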

How the results depend on the processing

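With the library totals alone, 5 genes were called higher in place of 8 (*Cpox*, *Tal1* and *Tmcc2* were lost), the median was 0.12 in place of 0.51, the median of all genes shifted by -0.39, and 12.4% of all genes were higher and 37.8% lower. With intervals beyond 4-fold, 4 genes were higher and 3 lower (6.94% and 15.9% of all genes), and beyond 1.5-fold 11 were higher and 7 lower (23.9% and 38.5% of all genes), with *Lmo2*, *Rhag* and *Slc4a1* added. With only genes that had a count in both libraries, an alternative chosen after seeing the data, 4 were lower in place of 7, since *Gata1*, *Klf1* and *Hemgn* drop out, and the median was 0.74. The median of all genes was then -0.06, with 21.2% higher and 22.5% lower. Without *Rn45s*, the precursor of ribosomal RNA (49193 and 641391 counts), the globins held 3.58% of the counts on genes in *tuft* and 0.330% in wild type. Of the 5 other normalizations, the library totals alone gave the largest shift in log2 fold change, the -0.39 above. A called gene lies beyond 2-fold, so its sign could not change under any of them. The sign changed for 4 uncalled genes, *Fech* (from -0.39 to 0.05), *Hbb-bh1* (from -0.29 to 0.15), *Nfe2* and *Tfrc*. No paired analysis was possible because 1 library per genotype was analyzed, and leaving out a library leaves no comparison. In *tuft*, 3 counts are 0.466 CPM, but a count of 0 was common at wild-type levels well above this. It was found for 49.6% of the genes at 2 to 5 CPM in WT and for 29.1% at 5 to 10. At 20 to 50 CPM in WT it was found for 4.39%. Statements on genes with no count in *tuft* are therefore limited, and the spread between embryos is unknown.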

Other observations

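Beside the erythroid genes, markers of the tissues that make up the head had medians near 0, above the -0.46 of all genes compared. After TMM the ratio of their summed levels was 1.44 for neuroepithelium and 2.07 for mesenchyme. Among all genes compared, 17.4% were called higher and 29.8% lower. Of 10 markers of head neuroepithelium, 2 were called higher and 1 lower, with a median log2 fold change of 0.04. *Six3*, a homeobox gene of the forebrain and eye field, had 1361 counts in *tuft* and 958 in WT, 4.14-fold higher (3.81 to 4.50), and *Rax*, another homeobox gene of the eye field, had 2 and 389. Of 10 markers of head mesenchyme and neural crest, 2 were higher and 1 lower, with a median of 0.02. *Sox10*, a neural crest factor, had 1277 and 334 counts, 11.1-fold higher (9.86 to 12.6), and *Prrx2*, a homeobox gene of mesenchyme, had 0 and 301. These lists, like that of the erythroid genes, held single genes far on either side.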
